A study of Mus musculus with 147 samples.

Results

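*Man2a1*, *Enpp2*, *Crispld2*, *Anxa3*, *Cp*, *Krt15* and *Plscr2* are 7 of the 35438 genes in the count tables, picked because renin cells with an intact renin gene (WT renin cells) held almost no counts of them while renin-deleted cells (Renin-null cells) held many. *Crispld2*, *Cp* and *Krt15* had 0 counts summed over 51 WT wells, *Man2a1*, *Enpp2* and *Anxa3* had 1 each and *Plscr2* had 80. Their sums over 96 Renin-null wells ran from 38354 counts of *Plscr2* to 160014 of *Crispld2*. Because the genes were chosen on this contrast, the difference between the genotypes is a description and no test of it was made. The wells that held these counts differed from gene to gene. *Crispld2* was spread over many wells with transcripts of vascular mural cells, while 99.8% of the *Krt15* counts lay in 2 wells that held few of these transcripts.

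WT renin cells came from adult C57BL/6 mice of genotype Ren1c+/+ Ren1c-YFP (4 mice, 1 capture) and Renin-null cells from adult Ren1c-/- Ren1c-YFP mice of that strain (12 mice, 4 captures, sequenced as libraries YFP1 and YFP2 of 48 wells each). Ren1c-YFP is a reporter of *Ren1* promoter activity, with yellow fluorescent protein (YFP) as its product, and was present in both genotypes. Cells of the kidney cortex were sorted for YFP and held singly in wells of a Fluidigm C1 circuit, and full-length cDNA was made with SMART-Seq v4, without molecular identifiers. The labels tie no well to a mouse or capture, so each genotype was 1 sample, wells were not treated as replicates, and effects of genotype, capture and library cannot be told apart. WT wells held 26401 to 17124854 counts (median 1525972) and Renin-null wells 3628 to 14505243 (median 4107950), for sums of 197904443 and 398812805. Numbers such as well 27 only name a well.

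Renin cells are endocrine cells of the wall of the afferent arteriole that share their origin with its smooth muscle and pericytes, together called mural cells, and return to a contractile state when little renin is needed. The 7 genes do not belong to 1 pathway. Golgi mannosidase II (*Man2a1*) trims the sugars of glycoproteins, autotaxin (*Enpp2*) makes the lipid signal lysophosphatidic acid, *Crispld2* and *Cp* (ceruloplasmin, a copper-bearing iron oxidase) encode secreted proteins, *Anxa3* is a calcium-dependent membrane-binding protein, *Krt15* is a keratin of basal epithelia and *Plscr2* is a phospholipid scramblase.

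*Ren1*, the deleted gene, was found in every WT well, at 563 to 313965 counts per 1000000 counts (CPM). In Renin-null wells it summed to 0.135 CPM, with 54 counts in 16 wells and at most 17 in any. Transcripts of smooth muscle (*Acta2*, *Tagln*, *Myh11*, *Cnn1*, *Smtn*) and pericytes (*Pdgfrb*, *Rgs5*, *Cspg4*, *Mcam*, *Notch3*) together reached 1000 CPM in 74 of 96 Renin-null wells and 28 of 51 WT wells. *Akr1b7*, a renin cell marker that does not need renin, reached 100 CPM in 59 Renin-null and 35 WT wells. The label of a well therefore states its genotype and sort, and 22 Renin-null wells were below the limit used here for mural transcripts. Transcripts of *EYFP* reached 100 counts in 25 Renin-null and 6 WT wells.

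Summed transcripts of each list for another cell type were higher in Renin-null wells, many of them through 1 well. Summed CPM in Renin-null and WT cells were 1159 and 173 for fibroblast genes (most abundant in Renin-null wells *Col3a1*), 334 and 29.4 for proximal tubule (*Miox*), 109 and 0.515 for loop and distal tubule (*Slc12a1*), 96.1 and 40.6 for collecting duct (*Fxyd4*), 94.04 and 36.4 for the parietal epithelium of Bowman's capsule (*Cdh6*), 559 and 86.1 for podocytes (*Synpo*), 233 and 38.3 for endothelium (*Emcn*) and 4.36 and 0.985 for macrophages (*Ptprc*). The list for injured tubule epithelium stood at 1390 and 5.33 (*Spp1*) and that for urothelium at 45.1 and 0 (*Upk1b*). *Spp1* made up 1348 of the 1390 CPM. By in situ hybridization the authors found more *Spp1* in the thickened arterioles of renin-deleted mice, so this list does not mark injured tubule alone. Genes at 0 in WT wells were 1 of 8 for proximal tubule, 2 of 6 for loop and distal tubule, 2 of 5 for podocytes, 2 of 7 for endothelium, 5 of 7 for macrophages, 3 of 5 for injured tubule and 5 of 5 for urothelium. Genes at least 2-fold higher in Renin-null cells were 5 of 6 for fibroblasts, 8 of 8 for proximal tubule, 5 of 5 for podocytes and 5 of 7 for endothelium, against 52.4% of all genes. For collecting duct 3 of 8 were as much higher and 3 as much lower, and the median log2 ratio of 0.71 was below the 1.17 of all genes. Without the Renin-null well that holds most of a list, the level was 28.6 CPM for loop and distal tubule (well 23), 65.2 for endothelium (well 83), 502 for injured tubule (well 7), 18.4 for urothelium (well 51), 239 for podocytes (well 59), 53.6 for collecting duct (well 96) and 58.6 for Bowman's capsule (well 25). The log2 ratio to the WT level was then 0.77 for endothelium, 0.69 for Bowman's capsule and 0.40 for collecting duct, all below the 0.84 that scaling by DESeq2 size factors takes off, and without well 48 as well, the near-identical partner of well 96, collecting duct stood at 28.5 CPM, below the 40.6 of WT cells. The part of these cell types in the counts of the 7 genes was not tested. Levels of some of these lists are given beside each gene for some of the wells that hold it.

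Upstream sequence is shown for *Crispld2* and *Cp*, the genes with a count in the most Renin-null wells (82 and 69). The lines give the 250 bases before an annotated start in RefSeq, on the plus strand of GRCm38.p6, at chr8:119992188-119992437 for *Crispld2* and chr3:19956804-19957053 for *Cp*. Capitals mark letters matching 1 of 6 motifs searched on both strands, namely the cAMP response element TGACGTCA, its shorter form TGACG that the former contains, the AP-1 motif TGANTCA, the TATA box TATAAA, the GC box GGGCGG and the CCAAT box CCAAT.
Crispld2: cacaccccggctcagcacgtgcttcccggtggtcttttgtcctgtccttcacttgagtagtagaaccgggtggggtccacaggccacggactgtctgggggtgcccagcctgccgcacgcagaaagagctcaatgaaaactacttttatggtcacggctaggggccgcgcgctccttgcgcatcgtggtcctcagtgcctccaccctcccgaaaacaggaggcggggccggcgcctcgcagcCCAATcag
Cp: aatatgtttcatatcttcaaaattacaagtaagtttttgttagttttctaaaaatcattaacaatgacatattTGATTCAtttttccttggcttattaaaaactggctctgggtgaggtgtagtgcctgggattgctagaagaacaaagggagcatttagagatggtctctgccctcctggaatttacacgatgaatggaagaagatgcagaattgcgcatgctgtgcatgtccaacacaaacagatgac
*Crispld2* held 1 CCAAT box, which 33.8% of all 32851 upstream windows hold, and *Cp* held 1 AP-1 motif, found in 6.75% of them. Neither of these windows held the other motifs. A second annotated start of *Cp*, whose window at chr3:19956999-19957248 overlaps an annotated UTR and is not printed, held 2 overlapping TATA box matches on opposite strands, 25 and 27 bases before that start, and 1 CCAAT box. A TATA box is held by 12.4% of windows. A match of letters is not evidence of a bound site.

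In Renin-null cells the summed level was 401 CPM for *Crispld2*, 244 for *Cp*, 215 for *Krt15*, 169 for *Man2a1*, 169 for *Enpp2*, 132 for *Anxa3* and 96.2 for *Plscr2*. In WT renin cells *Plscr2* was at 0.404 CPM, and 3 counts over all WT wells, the floor used for a genotype at 0, equal 0.0152 CPM. The log2 ratio of summed CPM, Renin-null over WT, was 15.03 for *Man2a1* (95% interval of counting error 12.55 to 20.33), 15.03 for *Enpp2* (12.55 to 20.33), 14.68 for *Anxa3* (12.20 to 19.98) and 7.89 for *Plscr2* (7.58 to 8.23). Against the floor, *Crispld2* was at least 26468-fold higher, *Cp* at least 16123-fold and *Krt15* at least 14166-fold. The exact intervals of these 3 genes begin somewhat lower, at log2 ratios of 14.39, 13.68 and 13.49. The intervals of *Man2a1*, *Enpp2* and *Anxa3* are wide because each rests on 1 WT count. All intervals cover counting error only, since PCR copies are not independent molecules.

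All 7 genes were more than 10-fold higher in Renin-null cells, as were 27.1% of the 18720 genes with a ratio. At 1000-fold the count was 6 of 7 genes, all but *Plscr2*, against 2.33% of genes. The median log2 ratio was 14.68 for the 7 genes (lowest 7.89, highest 15.03) and 1.17 for all genes, and scaling by TMM factors moved the latter to 0.47. The ratios of *Crispld2*, *Cp* and *Krt15* enter this median at the floor of 3 WT counts and are lower bounds, so the order of the 6 genes with 0 or 1 WT count is not a ranking. TMM factors take 0.70 off every log2 ratio and DESeq2 size factors 0.84, so a ratio between 0 and 0.84 has no fixed sign. Because the genes were chosen for this difference, nothing is read from these shares.

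The table held other genes of the same kind. No more than 80 WT counts with at least 38354 Renin-null counts, the limits that the 7 genes themselves reach, were found for 42 genes, and the converse held for 2. The Renin-null sum is the deeper, and on the CPM scale, at no more than 0.404 in Renin-null and at least 96.2 in WT cells, the converse held for 5. At most 10 WT counts, at least 10000 Renin-null counts and a count in at least 20% of Renin-null wells were found for 164 genes (0.876% of those tested), 6 of them members. Over these 164 genes the well with the most counts held a median of 56.4% of a gene's Renin-null counts. Genes close by the members in rank included *Spp1* (osteopontin, a matrix phosphoprotein; 5 WT and 537790 Renin-null counts), *Il6* (interleukin 6; 0 and 88326) and *9130023H24Rik* (2 and 79259), whose top wells held 66.7%, 27.5% and 44.1% of the Renin-null counts.

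How widely the genes were held depended on the smallest count taken as present. At least 1 count was found in 82 of 96 Renin-null wells for *Crispld2* (85.4%), 69 for *Cp* (71.9%), 60 for *Plscr2* (62.5%), 59 for *Anxa3* (61.5%), 47 for *Man2a1* (49.0%), 44 for *Enpp2* (45.8%) and 31 for *Krt15* (32.3%). A count in at least 20% of Renin-null wells and in no more than 1 WT well was found for 6 members and for 1.68% of genes. At 10 counts the wells were 40 for *Crispld2*, 31 for *Man2a1*, 25 for *Plscr2*, 24 for *Cp*, 17 for *Anxa3*, 13 for *Enpp2* and 10 for *Krt15*. At 100 counts they were 27, 12, 13, 14, 10, 7 and 2 in that order of genes, and *Cp*, *Anxa3* and *Man2a1* changed places with the limit, while *Crispld2* stayed first, *Plscr2* the third, *Enpp2* the sixth and *Krt15* last.

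**Figure D1:**
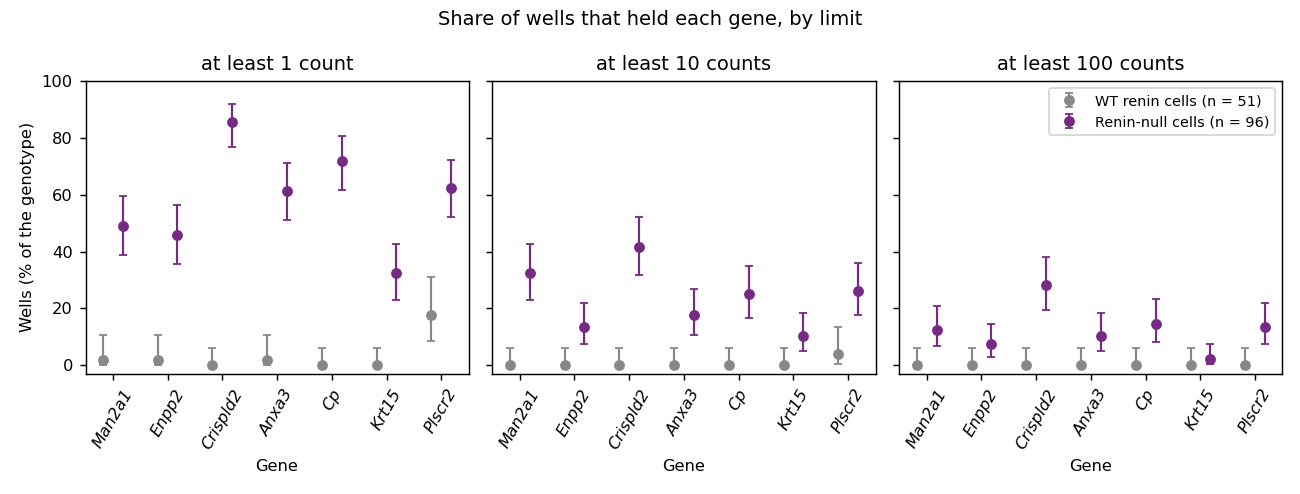
Share of wells (%, y axis) with at least 1, 10 or 100 counts of each gene (panels, left to right) in WT renin cells (grey, 51 wells) and Renin-null cells (purple, 96 wells). Bars are exact 95% intervals, or the 5.88% that 0 of 51 wells allows. *Crispld2* fell from 85.4% to 28.1% of Renin-null wells between the outer panels and *Krt15* from 32.3% to 2.08%.

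In WT renin cells, 10 counts were reached by *Plscr2* alone, in well 8 (13 counts) and well 33 (55 counts). The single counts of *Man2a1* and *Anxa3* were both in WT well 43, the deepest with 17124854 counts, and that of *Enpp2* was in well 16. For the other genes, 0 of 51 WT wells allows a share of up to 5.88%. WT wells were the poorer in quality, with a median mitochondrial share of 60.4% against 12.4% in Renin-null wells. In the 15 WT wells passing the limits on quality a count of 0 allows a share of up to 20% (21.8% by the exact interval). At 100 counts, the share of Renin-null wells was 28.1% for *Crispld2* (exact interval 19.4% to 38.2%), 7.29% for *Enpp2* (2.98% to 14.4%) and 2.08% for *Krt15* (0.253% to 7.32%). Wells of 1 sample are not replicates of a genotype. These intervals describe only the drawing of wells, taken as independent, and the genotypes were not compared by them.

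**Figure D2:**
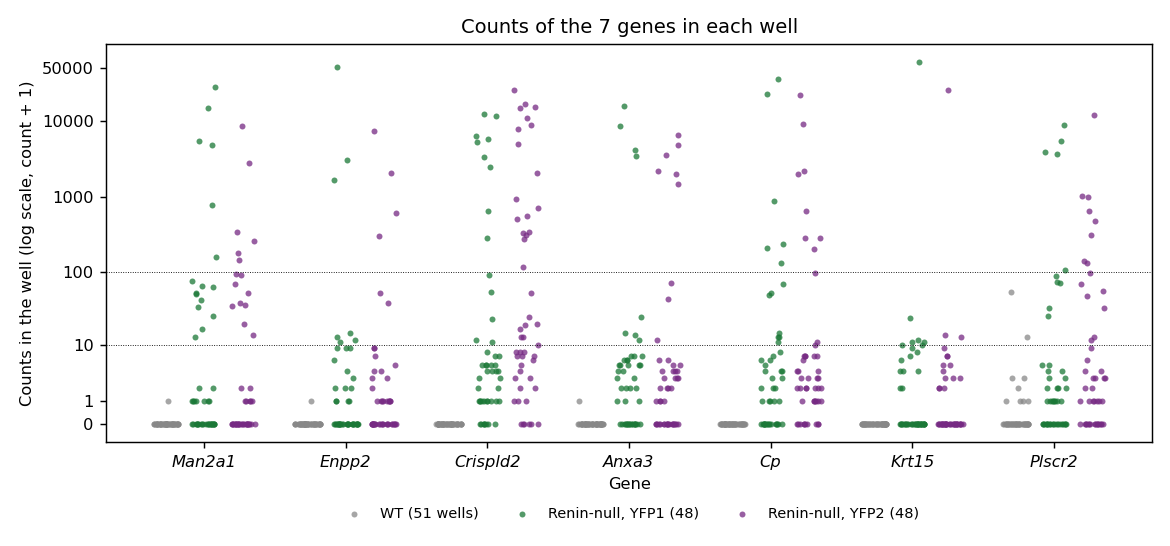
Counts of each gene (x axis) in every well (log axis of count + 1), with WT wells in grey, YFP1 wells in green and YFP2 wells in purple. Dotted lines mark 10 and 100 counts. WT points lie at 0 or 1 except for *Plscr2*, and Renin-null wells run from 0 to 59862 counts.

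For every gene but *Man2a1*, most wells with a count held fewer than 10. Counts of 1 to 9 were found in 16 Renin-null wells for *Man2a1*, 31 for *Enpp2*, 42 for *Crispld2*, 42 for *Anxa3*, 45 for *Cp*, 21 for *Krt15* and 35 for *Plscr2*, and these wells together held 0.0297% to 0.286% of each gene's counts. At the other end, the 5 highest wells held 53.2% of the counts of *Crispld2*, 75.4% of *Anxa3*, 88.1% of *Plscr2*, 91.7% of *Man2a1*, 94.6% of *Cp*, 98.3% of *Enpp2* and 99.8% of *Krt15*. The sums per genotype thus rest on a small number of wells for every gene but *Crispld2*. With the highest Renin-null well and the highest WT well of each gene left out, the log2 ratio was 14.44 for *Crispld2*, 13.31 for *Cp*, 12.67 for *Man2a1*, 12.58 for *Anxa3*, 12.06 for *Krt15* and 11.31 for *Enpp2*, each against the floor of 3 WT counts, and 9.03 for *Plscr2*, whose WT well 33 was left out with it.

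**Figure D3:**
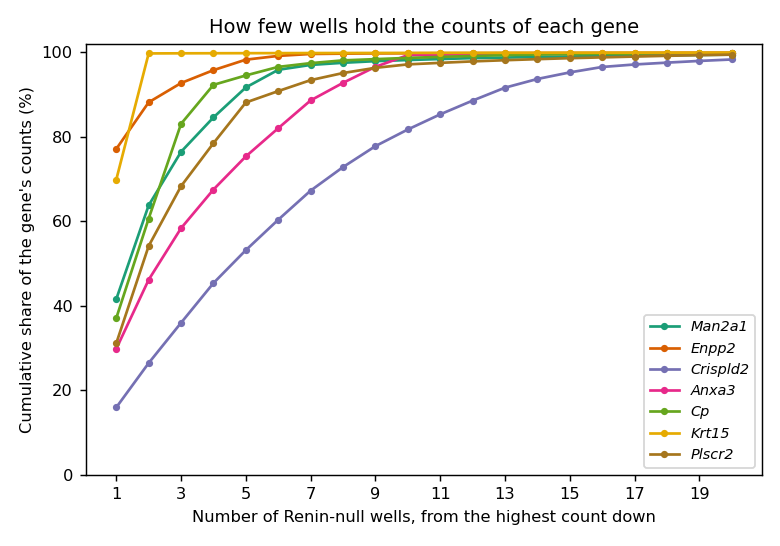
Cumulative share of a gene's Renin-null counts (%, y axis) over wells ranked from the highest count down (x axis, first 20 of 96 wells), 1 line per gene. *Krt15* reached 99.8% with 2 wells, and *Crispld2* reached 53.2% with 5.

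Depth moved with these counts. The 30 Renin-null wells of under 1000000 counts included 3 wells with 10 counts of *Man2a1*, 3 of *Cp*, 1 each of *Crispld2*, *Anxa3* and *Plscr2*, and none of *Enpp2* or *Krt15*. After thinning each well to 62000 counts, which leaves out 13 Renin-null and 2 WT wells, the expected share of Renin-null wells with a count was 45.3% for *Crispld2*, 26.5% for *Man2a1*, 25.8% for *Cp*, 22.8% for *Plscr2*, 21.3% for *Anxa3*, 12.5% for *Enpp2* and 6.00% for *Krt15*. The expected WT share was 1.38% for *Plscr2* and at most 0.263% for the others. Among wells of at least 1000000 counts, 39 of 66 Renin-null wells (59.1%, median 6434632) held *Crispld2* at 10 counts and 28 (42.4%) held *Man2a1*. The 35 WT wells of that depth (median 2439706 counts) held no gene but *Plscr2* at that limit, which allows a share of up to 8.57%. The choice of genes with almost no WT counts fixed this WT result in advance.

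The low counts could be set against repeated wells. Among Renin-null wells, 4 pairs were near identical across genes, with correlations of log2(CPM + 1) from 0.974 to 0.987, against 0.896 for the next pair. Whether the wells of a pair hold the same cell is not given in the sources used here. Of 13 pairs of values whose higher count was 1 to 9, 3 had 0 in the partner well, and of 3 with a higher count of 10 to 99, 2 had 0. None of the 9 with a higher count of at least 100 had 0, and their CPM differed by a median of 1.63-fold (at most 5.03-fold). Wells 45 and 93, for example, held 5208 and 4897 counts of *Crispld2*, and wells 48 and 96 held 1455 and 2001 of *Anxa3*.

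**Figure D4:**
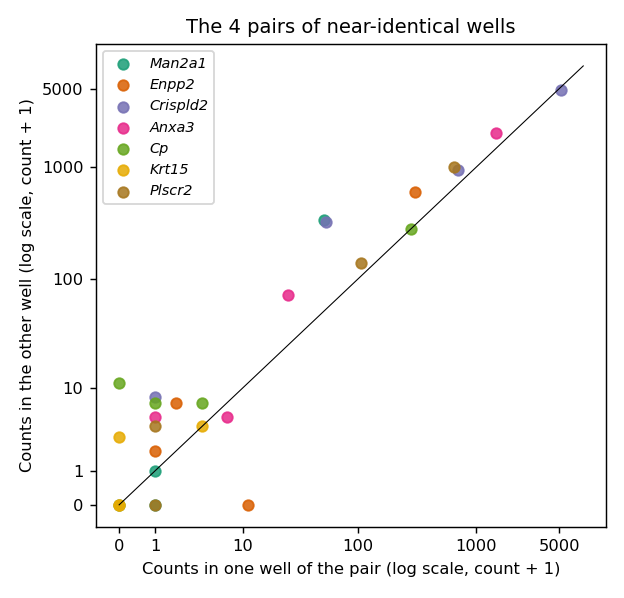
Counts of the 7 genes in one well (x axis) and in its partner (y axis) for the 4 pairs of near-identical Renin-null wells, on log axes of count + 1. The line marks equal counts. Values of at least 100 counts were above 0 in both wells, while some lower ones were at 0 in 1.

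Index sequences were a further measure of the low counts. Within a library, 1 to 9 counts of a member were found in 33.5% of the 194 gene and well combinations that share an index with the top well of that gene and in 36% of the 450 that share none. The genes were not alike in this, the share being higher among wells sharing an index in 5 of 14 combinations of gene and library. For *Cp* it was 8 of 14 wells against 10 of 33 in YFP1 and 10 of 14 against 16 of 31 in YFP2, and for *Krt15* in YFP1 6 of 14 against 3 of 33. The part of index sharing in these counts was not tested. A pair of wells whose index labels disagree was left out.

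*Crispld2* (cysteine-rich secretory protein LCCL domain-containing 2, ENSMUSG00000031825.16, chr8:119992438-120052793, plus strand, GRCm38) was the gene held most widely. Its counts in the 40 Renin-null wells with at least 10 ran from 10 to 25526 (median 528), and 16 wells held at least 1000. The highest were well 75 with 25526 counts (3028 CPM), well 53 with 16801, well 74 with 15254, well 82 with 15043 and well 26 with 12485. No single well dominated, the top well holding 16.0% of the gene's counts. YFP1 wells summed to 266 CPM and YFP2 wells to 514 CPM, so the gene was abundant in both libraries.

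All 40 wells with at least 10 counts of *Crispld2* were among the 74 Renin-null wells with mural transcripts (54.1%), against 0 of the 22 without, which allows up to 13.6%. The wells without were shallower, with a median of 973486.5 counts against 4962131.5. Among wells of at least 1000000 counts, *Crispld2* was found in 39 of 55 with mural transcripts (70.9%, median 6382994 counts) and in 0 of 11 without (allowing up to 27.3%, median 6486270). It was in 0 of the 22 WT wells with mural transcripts and that depth (allowing up to 13.6%, median 8559574.5 counts). That 0 was fixed in advance, because the gene was picked with 0 counts in all 51 WT wells, so nothing is read from it. Of the 16 wells with at least 1000 counts, 14 also had *Akr1b7* at 100 CPM. The mural lists summed to 11717 CPM in Renin-null and 10625 CPM in WT cells for smooth muscle and 14807 and 12404 CPM for pericytes. Fibroblast transcripts moved with the gene as well. Over 92 Renin-null wells, Spearman rho with *Crispld2* was 0.44 for smooth muscle, 0.44 for pericyte and 0.40 for fibroblast lists. The fibroblast list stood at 4842 CPM in well 82 and 2207 in well 74, against 363 in well 53, 178 in well 26 and 138 in well 75. What part fibroblasts have in these wells was not tested.

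Genes whose CPM followed *Crispld2* most closely over 92 Renin-null wells, near-identical wells counted once, were *Nr4a1* (an immediate early nuclear receptor, Spearman rho 0.57), *Tinagl1* (a matrix protein, 0.56), *Igfbp5* (a binding protein for insulin-like growth factors, 0.55), *Tsc22d1* (0.53) and *Gm15280* (0.52). The first 4 of these were also among the first 5 by Pearson correlation of log2(CPM + 1). With wells of low quality left out, only 1 of the 5 was still among the first 5 by Spearman rho. Unlike *Crispld2*, *Nr4a1*, *Tinagl1*, *Igfbp5* and *Tsc22d1* were abundant in WT renin cells, with log2 ratios of -0.47, 0.25, 0.46 and 0.40. Of its family of secreted proteins with a CAP domain, *Pi15* had a ratio of 0.08 with 45690 Renin-null counts, *Glipr2* of 1.19, *Glipr1* of 1.16 and *Pi16* of 3.07, and *Crispld1* held 1 WT and 1032 Renin-null counts, 84.98% of them in well 91.

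*Man2a1* (alpha-mannosidase 2, ENSMUSG00000024085.13, chr17:64600736-64755110, plus strand) and *Enpp2* (ENSMUSG00000022425.16, chr15:54838901-54952892, minus strand) had their highest counts in the same well. Well 27 of YFP1 held 28006 counts of *Man2a1* (41.6% of the Renin-null sum) and 51870 of *Enpp2* (77.1%). For *Man2a1* the next wells were 17 with 14944 counts, 91 with 8535, 39 with 5478, 3 with 4779 and 83 with 2813. For *Enpp2* they were 82 with 7422, 3 with 3069, 89 with 2052 and 19 with 1670. At 100 counts the genes shared wells 3, 19, 27, 82 and 96, which are 5 of 12 wells of *Man2a1* and 5 of 7 wells of *Enpp2*, and well 17 held no *Enpp2*.

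Well 27 held mural transcripts of an uneven kind, with 16712 CPM of the pericyte list and 51.1 CPM of the smooth muscle list, together with 4012 CPM of *Akr1b7* and 16600 counts of *EYFP*. Mural transcripts reached 1000 CPM in 5 of the 6 wells with at least 1000 counts of *Man2a1* and in 4 of the 5 of *Enpp2*. Among all Renin-null wells they did so in 74 of 96, a similar share. By sums, 91.01% of the *Man2a1* counts and 97.5% of the *Enpp2* counts lay in wells with mural transcripts, which held 82.3% of all Renin-null counts. The exceptions were well 39 for *Man2a1* and well 19 for *Enpp2*, the latter with 2268 CPM of proximal tubule transcripts and 2725 CPM of the list for injured tubule. At 10 counts, *Man2a1* was in 8 of 22 wells without mural transcripts (36.4%) and in 23 of 74 with them (31.1%). Among wells of at least 1000000 counts it was in 7 of 11 without (63.6%) and in 21 of 55 with them (38.2%). The libraries differed, at 301 CPM in YFP1 and 58.6 in YFP2 for *Man2a1* and 313 and 48.4 for *Enpp2*. Well 27 held 28006 of the 54593 YFP1 counts of *Man2a1* and 51870 of the 56710 of *Enpp2*. YFP2 wells held 12730 counts of *Man2a1* and 10524 of *Enpp2*. The higher YFP1 level of *Enpp2* therefore rests on well 27. That of *Man2a1* remains without well 27, but well 17 alone held a further 14944 of its YFP1 counts. In YFP2, well 91 held 8535 of the 12730 counts of *Man2a1*.

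Most other genes of N-glycan processing had WT counts. Of the other 16 genes of trimming and branching, *Man1b1* and *Mogs* were at 0 in WT wells, and the rest held 47 to 19052 WT counts. The closest relative of *Man2a1*, *Man2a2*, which can act at the same step, held 911 WT and 1501 Renin-null counts (log2 ratio -0.29), the lysosomal *Man2b1* had a ratio of 5.27, *Man2b2* of 0.65 and the cytosolic *Man2c1* of -2.41. Ratios of 2-fold or more toward Renin-null cells were found for 10 of the 16 and toward WT cells for 3, against 52.4% and 18.5% of all genes. The extremes besides *Man2a1* were *Man1b1*, a mannosidase of the early pathway (0 and 12539 counts, 94.97% of them in well 79), *Mogs*, the first glucosidase of the pathway (0 and 1400 counts, 98.1% in well 88), and the branching enzymes *Mgat4a* (837 and 8 counts, log2 ratio -7.72) and *Mgat4b* (-4.45).

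For lysophosphatidic acid, 7 of 11 genes with a ratio besides *Enpp2* were at least 2-fold higher and 4 at least 2-fold lower, against 52.4% and 18.5% of all genes. The receptor genes were low in both genotypes, with *Lpar6* at 62 WT and 6031 Renin-null counts (72.9% of them in well 51) and *Lpar4* at 4 and 693 (log2 ratio 6.43). *Lpar2* had a ratio of -1.69 and the phospholipase *Pla2g6* -1.79. Of the other ectonucleotide pyrophosphatases, *Enpp3* had a ratio of 8.48 (4 and 2884 counts) and *Enpp1*, which makes pyrophosphate, 3.20, while *Enpp4*, *Enpp5* and *Enpp6* lay at 0.56, 0.20 and -0.48.

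*Anxa3* (annexin A3, ENSMUSG00000029484.12, chr5:96793339-96845966, plus strand) was split between high and low wells. It held at least 1000 counts in 10 Renin-null wells, between 100 and 1000 in none and 10 to 99 in 7. The highest were well 14 with 15741 counts (3112 CPM, 29.8% of the sum), well 31 with 8622, well 83 with 6444, well 59 with 4828, well 26 with 4138 and well 79 with 3523. Mural transcripts reached 1000 CPM in 8 of the 10 wells, near the 74 of 96 among all Renin-null wells. The others were well 7, described with *Krt15*, and well 59, which held 12661 CPM of podocyte transcripts. Well 83 held 9275 CPM of endothelial transcripts beside 6037 CPM of pericyte transcripts. What part other cell types have in these wells was not tested.

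Other annexins were present in WT renin cells. *Anxa5* (log2 ratio 0.85), *Anxa6* (-0.05) and *Anxa7* (0.54) held over 10000 counts in each genotype, *Anxa1* had a ratio of 2.20, *Anxa2* of 3.79, *Anxa4* of 4.38 and *Anxa11* of -1.22. *Anxa8* and *Anxa9* were at 0 in WT wells, and of 4652 Renin-null counts of *Anxa8*, 99.9% were in well 7. *Anxa9* held 1346, 68.3% of them in well 69. *Anxa3* correlated weakly with other genes over wells, the highest being *Marchf7*, a ubiquitin ligase gene (rho 0.46).

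*Cp* (ceruloplasmin, ENSMUSG00000003617.16, chr3:19957054-20009145, plus strand) was high in wells of different kinds. Wells 27, 7, 89 and 51 held 36165, 22968, 21867 and 8992 counts, 92.3% of the sum, followed by well 73 with 2175 and well 63 with 1969. Wells 27 and 89 had pericyte transcripts at 16712 and 19218 CPM and *Akr1b7* at 4012 and 6490 CPM, while wells 7 and 51 had 21.4 and 22.4 CPM of pericyte transcripts and 2.90 and 0.916 CPM of *Akr1b7*. Well 89 was also the top Renin-null well of the fibroblast list, at 7890 CPM. That list stood at 6533 CPM in well 63 and 3889 in well 73, against 480 in well 27, 754 in well 7 and 158 in well 51. In sums, 66.2% of the *Cp* counts lay in wells with mural transcripts and 32.8% in wells 7 and 51. Of the 24 wells with at least 10 counts, 20 had mural transcripts, near the 74 of 96 among all Renin-null wells. Wells with mural transcripts held 82.3% of all Renin-null counts.

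Among genes of iron and copper handling besides *Cp*, 6 of 12 with a ratio were at least 2-fold higher, near the 52.4% of all genes, and 2 at least 2-fold lower (18.5% of all genes). The iron exporter *Slc40a1*, with which ceruloplasmin acts, held 1 WT and 4910 Renin-null counts (log2 ratio 11.25), spread over 19 wells with at least 10. *Heph*, another ferroxidase gene, held 0 and 2197, 61.04% of them in well 7. The transferrin receptor *Tfrc* had a ratio of -5.11 (4885 and 286 counts) and the metalloreductase *Steap3* of -1.31.

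*Krt15* (keratin 15, ENSMUSG00000054146.8, chr11:100131758-100135928, minus strand) was in effect a gene of 2 wells. Well 7 of YFP1 held 59862 counts (6681 CPM) and well 51 of YFP2 held 25575 (3348 CPM). The third highest was well 5 with 24 counts, and no other well reached 100. Both high wells met the limits on cell quality, with 7119 and 6236 genes and 1.45% and 2.05% mitochondrial counts.

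Wells 7 and 51 were among the 22 Renin-null wells low in mural transcripts. The smooth muscle list stood at 17.0 and 150 CPM and the pericyte list at 21.4 and 22.4 CPM, *Akr1b7* had 26 and 7 counts, and *EYFP* had 7 and 1. The list for injured tubule epithelium stood at 40017 and 18532 CPM, almost wholly *Spp1*, a list that reached 100 CPM in 15 Renin-null wells, and the urothelial list at 797 and 1414 CPM, almost wholly the uroplakin gene *Upk1b*. These were the 2 Renin-null wells in which the urothelial list reached 100 CPM, and all 5 of its genes were at 0 in WT wells. *Upk1b* was 1 of 2 uroplakin genes with any Renin-null counts, the other 3 being at 0, so the list rests on that gene. In the list for injured tubule, *Havcr1* and *Krt20*, 2 of 5 genes, were at 0 in all Renin-null wells. Wells 7 and 51 held 92.99% of the *Spp1* counts of Renin-null wells.

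Other keratins were held in the same wells. All 7 keratin genes with a ratio besides *Krt15* were at least 2-fold higher in Renin-null cells, against 52.4% of all genes, with 82.4% of the counts of *Krt7*, 99.8% of *Krt5*, 99.8% of *Krt14* and 81.2% of *Krt18* in wells 7 and 51, and *Krt14* in well 7 only of the pair. *Krt13* lay elsewhere, with 98.9% of its counts in well 73, while *Krt19* and *Krt8* were divided, with 75.4% and 32.0% of their counts in well 23 and 24.3% and 31.2% in wells 7 and 51. *Krt17*, *Krt20* and *Krt4* were listed at 0 in both genotypes. The genes most like *Krt15* over wells were *Gsto1* (rho 0.77), *Apoc1* (0.76), *Cbr2* (0.76), *Enc1* (0.75) and *Slc40a1* (0.75). The 2 wells held 99.8% of the counts of *Apoc1*, 99.6% of *Cbr2*, 57.4% of *Gsto1*, 25.2% of *Enc1* and 15.4% of *Slc40a1*.

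*Plscr2* (phospholipid scramblase 2, ENSMUSG00000032372.14, chr9:92275602-92297752, plus strand) was the gene with the most WT counts and was highest in wells without mural transcripts. Wells 59, 39, 19, 7 and 23 held 11944, 8832, 5433, 3900 and 3700 counts, 88.1% of the sum, and well 62 held 1033. Of these 6 wells only well 62 had mural transcripts at 1000 CPM. Well 59 held podocyte transcripts (12661 CPM), well 19 those of proximal tubule (2268 CPM) and well 23 those of loop and distal tubule (3622 CPM), and the highest list of well 39 was that of pericytes at 328 CPM. In sums 10.9% of the *Plscr2* counts lay in wells with mural transcripts, in which its level was 12.7 CPM against 484 CPM in wells without. In WT wells with mural transcripts it was 0.462 CPM.

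At 10 counts, *Plscr2* was in 18 of 74 Renin-null wells with mural transcripts (24.3%) and in 2 of 28 such WT wells (7.14%). Among those of at least 1000000 counts it was in 18 of 55 Renin-null wells (32.7%) and 2 of 22 WT wells (9.09%). Of other scramblases, *Plscr1* had a log2 ratio of 2.52, *Plscr3* of -1.26 and *Plscr4* of -0.47. Over 10 genes of phosphatidylserine exposure besides *Plscr2*, 2 were at least 2-fold higher and 4 at least 2-fold lower, against 52.4% and 18.5% of all genes, with *Xkr4* (-4.91) and *Xkr8* (-3.74) the lowest.

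**Figure D5:**
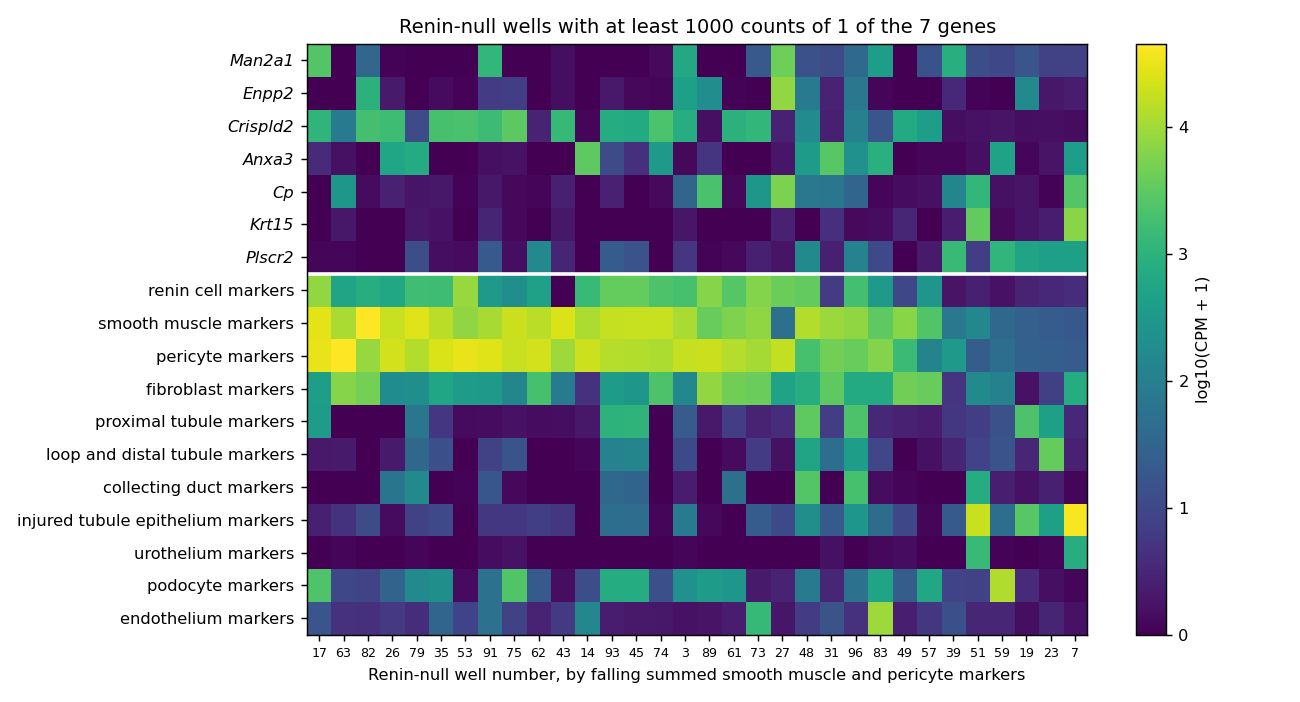
Levels as log10(CPM + 1) (colour) of the 7 genes (upper rows) and of summed marker lists (lower rows) in the 32 Renin-null wells with at least 1000 counts of 1 of the genes, ordered by falling smooth muscle and pericyte transcripts. *Crispld2* is high in the left part, *Plscr2* in the right part, and *Krt15* in wells 7 and 51.

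Fewer of the genes were held together at higher limits. At 1 count, 63 of 96 Renin-null wells held at least 4 of the 7 genes (65.6%) and 2 wells held none, whereas 41 of 51 WT wells held none. At 10 counts, 13 wells held at least 4 and 29 held none, and at 100 counts 4 wells held at least 4 and 51 held none. Of the 45 wells with 100 counts of a member, 22 held 2 or more members at that limit, and of the 32 wells with 1000 counts, 15 did. The number of genes held at 1 count moved with depth, from a median of 43088 counts in wells with 1 gene to 7102259 in wells with all 7. The wells with the most genes at 100 counts were 96 with 6 and 48 with 5, a near-identical pair with 11146 and 10121 genes detected and transcripts of mural, proximal tubule and collecting duct cells (2202 and 3092 CPM of proximal tubule, 1968 and 2511 CPM of collecting duct). Whether these wells held more than 1 cell was not tested.

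Of 21 pairs of genes, *Cp* and *Krt15* had the fullest overlap on one side at 100 counts, both *Krt15* wells being among the 14 of *Cp*. *Krt15* shared no well with *Man2a1*, *Enpp2* or *Crispld2* at that limit, and 1 well with each of *Anxa3* and *Plscr2* (well 7). *Crispld2* shared 7 of its 27 wells with *Man2a1* and 4 with *Enpp2*. Genes most like the remaining members over 92 wells were *Usp9x*, *Txndc5*, *Arnt*, *Atxn10* and *Zfp326* for *Man2a1* (rho 0.57 for *Usp9x*), *Rgcc*, *Ppp1cc*, *Setbp1*, *Anxa5* and *Atp5j* for *Enpp2* (0.55 for *Rgcc*), and *Fam220a*, *Atp6v0a4*, *Prelid3b*, *Tubb4a* and *Gclm* for *Plscr2* (0.58 for *Fam220a*). For *Cp* they were *Knop1*, *Tspo*, *Tor1aip2*, *Apold1* and *Med10* (0.48 for *Knop1*), and for *Anxa3*, after *Marchf7*, they were *Ankmy1*, *Bcl9l*, *Serpinh1* and *Prkacb*. Of the 35 genes so named, 11 were also among the first 5 by Pearson correlation and 7 when wells of low quality were left out. *Setbp1*, a nuclear protein gene, had 96.3% of its counts in well 27. Over 92 wells, which differ in depth, the highest rho between 2 members was 0.43, for *Krt15* and *Plscr2*.

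Sequence shared with other genes was limited. The share of 31-base words of a gene's transcripts found in transcripts of other genes was 0% for *Crispld2*, 0.582% for *Man2a1*, 0.901% for *Cp*, 2.75% for *Anxa3*, 3.74% for *Krt15*, 4.07% for *Plscr2* and 5.46% for *Enpp2*. For *Krt15* the words were shared with *Krt17* and other keratins, and *Krt17* held no counts. *Man2a1*, *Enpp2*, *Crispld2*, *Anxa3* and *Cp* overlap other annotated genes, and without a strand in the library, reads of such partners cannot be told apart where exons overlap.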

How the data were processed

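The authors trimmed reads with Trimmomatic (version 0.39 in the submitters' processing notes), quantified them with Salmon (0.11.2) on GRCm38 and summed transcripts to genes with tximport (lengthScaledTPM). The deposited values are expected counts of 35438 genes per well, not normalized for depth, which a correction for gene length can alter. They were rounded to whole numbers, summed per genotype and scaled to CPM. A genotype at 0 was set to 3 counts. Shares of wells above 0 have exact Clopper-Pearson intervals and ratios exact conditional intervals (95%). The share that 0 wells allows follows the rule of 3, which lies below the exact upper end. For 0 of 35, 22 and 11 wells the exact ends are 10.0%, 15.4% and 28.5%. With 1 sample per genotype, and genes chosen on this contrast, no test was run.

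The members and lists were chosen with earlier results of these data known. Named genes were the members, the 5 genes most like each by Spearman rho among genes in at least 20% of wells, family genes of at least 1000 counts, the 2 highest and 2 lowest ratios of each pathway list, the most abundant gene of each marker list, and the 10 largest ratios among genes of at most 10 WT and at least 10000 Renin-null counts. *Setbp1* in well 27, *Mogs*, leaving out the highest well of a marker list, the limits of 100 and 1000 counts, of 1000 CPM for mural and 100 CPM for *Akr1b7* transcripts, and of 1000000 counts per well were chosen after the data were seen. No doublet caller was run and all wells were kept. Wells passing quality had at least 100000 counts, 1000 genes and at most 25% mitochondrial counts (15 WT, 57 Renin-null). Software was Python 3.11.15 (numpy 2.4.6, pandas 2.3.3, scipy 1.17.1, matplotlib 3.10.9) and R 4.3.3 (edgeR 4.0.16, DESeq2 1.42.0, for scaling factors only). Coordinates are from GENCODE M21 on GRCm38, and *Man2a1*, whose window overlaps an annotated UTR, *Krt15*, *Enpp2*, *Anxa3* and *Plscr2* are shown without upstream sequence.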

Additional observations from a re-analysis of the deposited data

How the results depend on the processing

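The median log2 ratio of the 7 genes, 14.68, stayed between 12.58 (highest well of each gene left out) and 14.71 (near-identical wells counted once) over 10 alternatives, while the median of all genes, 1.17, moved between 0.33 (DESeq2 size factors) and 1.89 (highest well of each gene left out). No ratio of the 7 genes changed sign under these alternatives, which says little because the genes were chosen for large ratios. Single ratios also moved. With the mean over wells of CPM, *Enpp2* went from 15.03 to 11.34, below its interval of 12.55 to 20.33, and *Man2a1* went from 15.03 to 16.67. The 1 WT count of *Enpp2* lay in a well of 480713 counts and that of *Man2a1* in a well of 17124854, and a mean of CPM depends on these depths. How widely the genes were held did move. The median share of Renin-null wells with a count, 61.5%, became 25% at 10 counts, 22.9% at 10 CPM, 73.7% in wells passing quality and 22.8% after thinning to 62000 counts. At 100 counts, a limit added after the data were seen, it was 12.5%. Wells with at least 4 of the genes, 65.6%, became 13.5% at 10 counts, 6.25% at 10 CPM, 78.9% in wells passing quality and 4.17% at 100 counts. The median number of wells shared by a pair, 34, became 8 at 10 counts and 4 at 100. Of the 35 most alike genes, 11 were kept with Pearson correlation and 7 in wells passing quality. Higher limits leave fewer wells by construction. The cause of other moves was not tested. No paired analysis was possible because the genotypes share only well numbers and no comparison rests on a test. Depth and the missing identifiers limit what 1 to 9 counts can show.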
